A study of Arabidopsis thaliana with 6 samples.

Results

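The nuclear genes of the photosynthetic apparatus of *Arabidopsis thaliana* were compared between *lon1-2atg5-1* and *atg5-1* seedlings. The set was drawn up by gene identifier and by complex. Its rule uses no measured value, but it was written with earlier results of these data known. It holds 51 of the 27444 genes in the deposited tables, of which 6 encode the light-harvesting proteins of photosystem I (*LHCA*), 15 those of photosystem II (*LHCB*), 1 the photoprotective subunit *PSBS*, 12 subunits of photosystem I, 9 subunits of photosystem II, 2 subunits of the plastid ATP synthase and 6 the carriers that move electrons between or after the photosystems.

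RNA of whole seedlings was sequenced in 3 *lon1-2atg5-1* and 3 *atg5-1* libraries, and this was the only comparison of genotypes made here. Both genotypes are in the *Col-0* background and both carry *atg5-1*, a T-DNA insertion in *ATG5* (AT5G17290), which is required for autophagy. The double mutant carries in addition *lon1-2*, a T-DNA insertion in *LON1* (AT5G26860), which encodes a protease of the mitochondrial matrix. Plants grew without added stress under 16 h of light and 8 h of dark, and each mutant is a single insertion line. Seedlings were harvested in triplicate at an age given as 7 days in the series text and as 10 days in the methods of the paper. The wild type and the *lon1-2* single mutant were not analysed here.

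In plants, light is absorbed by chlorophyll held in LHCA and LHCB proteins and passed to the reaction centres of photosystem I and photosystem II. Photosystem II oxidises water, and electrons then move through the cytochrome b6f complex and plastocyanin to photosystem I, and onwards through ferredoxin to ferredoxin-NADP reductase. The proton gradient built on the way drives the plastid ATP synthase. The reaction-centre proteins are encoded in the plastid genome, whereas the antenna proteins and many peripheral subunits are encoded in the nucleus, often by several near-identical genes. Such genes are among the most abundant nuclear transcripts of green tissue, and many of them respond to light, to the circadian clock and to signals sent from the plastid to the nucleus. The tables hold 0 genes of the plastid genome, so the plastid-encoded subunits were not tested.

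The *LHCB1* family was the only one with copies that passed the test in both directions, so the sequences that separate the copies are shown first. *LHCB1.2*, *LHCB1.1* and *LHCB1.3* lie side by side within chr1:10472280-10479114 of the RefSeq TAIR10.1 assembly, *LHCB1.2* and *LHCB1.1* on the minus strand and *LHCB1.3* on the plus strand. Their coding sequences are 804 bases long and differ at 47 positions over the 3 copies, with a pairwise identity of 95.6% to 96.4%. The first 90 coding bases are printed 5′ to 3′, with the 9 positions that are not the same in all copies in capitals. They lie at chr1:10475803-10475892 for *LHCB1.1*, chr1:10473157-10473246 for *LHCB1.2* and chr1:10478071-10478160 for *LHCB1.3*, all within coding exon sequence.
LHCB1.1: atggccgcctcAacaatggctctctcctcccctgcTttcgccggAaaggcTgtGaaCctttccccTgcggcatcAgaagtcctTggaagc
LHCB1.2: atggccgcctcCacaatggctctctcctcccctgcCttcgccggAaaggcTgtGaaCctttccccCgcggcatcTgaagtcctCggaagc
LHCB1.3: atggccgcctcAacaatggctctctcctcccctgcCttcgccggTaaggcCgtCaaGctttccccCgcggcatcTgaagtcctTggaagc

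The 250 bases before the annotated starts of *LHCB1.1* (chr1:10475970-10476219, minus strand) and *LHCB1.2* (chr1:10473503-10473752, minus strand) are shown because these neighbours moved in opposite directions. Capitals mark AAAAATCT, which was found in the window of *LHCB1.1* and not in that of *LHCB1.2*. It occurred on either strand in 6.7% of the upstream windows of all 27443 genes searched. Of the other copies, *LHCB1.4*, which did not pass, also holds it, while *LHCB1.5*, which fell, and *LHCB1.3*, which did not pass, do not.
LHCB1.1: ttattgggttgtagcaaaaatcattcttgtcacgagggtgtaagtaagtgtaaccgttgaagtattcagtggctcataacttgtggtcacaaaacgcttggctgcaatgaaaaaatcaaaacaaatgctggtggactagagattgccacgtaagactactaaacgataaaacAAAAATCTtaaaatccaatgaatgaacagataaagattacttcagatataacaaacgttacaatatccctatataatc
LHCB1.2: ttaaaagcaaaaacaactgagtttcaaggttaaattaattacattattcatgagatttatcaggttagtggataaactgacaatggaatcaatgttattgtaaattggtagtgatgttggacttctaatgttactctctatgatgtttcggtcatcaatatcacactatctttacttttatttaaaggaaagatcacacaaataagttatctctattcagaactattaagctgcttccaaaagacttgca

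Libraries held between 21964283 and 23929531 counts, and normalization factors lay between 0.962 and 1.03. Normalised read counts, used below, are read counts scaled to a library of mean size by the trimmed mean of M-values (TMM), and log2 fold changes are *lon1-2atg5-1* over *atg5-1*. *LON1* had 194, 131 and 93 normalised counts in *lon1-2atg5-1* and 644, 539 and 611 in *atg5-1*, a log2 fold change of -2.10 ± 0.22 (SE, n = 3 each, edgeR adjusted p = 0.000141). *ATG5* had 1305, 966 and 625 normalised counts in *lon1-2atg5-1* and 496, 531 and 442 in *atg5-1*, a log2 fold change of 0.98 (edgeR adjusted p = 0.00786), although both genotypes carry the insertion. Gene-level counts do not show on which side of the insertion its reads lie. Over all 20157 genes tested, 53.5% passed an adjusted p of 0.05, with 27.7% higher and 25.8% lower in *lon1-2atg5-1*, and 27.7% passed with a fold change over 1.5. Some markers of other cell types moved as well. Of 12 root markers, 7 fell (*CASP1* to *CASP5*, *COBL9* and *EXPA7*), while *MYB36*, *RHD6*, *PIN2*, *PLT1* and *PLT2* did not pass. The 12 summed to 37.8 to 42.1 CPM (counts scaled to a common library total) in *lon1-2atg5-1* and 82.5 to 104 in *atg5-1*. Of 7 stomatal and epidermal markers, 5 fell, while *SPCH* and *GL1* did not pass. The 7 summed to 32.4 to 41 CPM in *lon1-2atg5-1* and 54.5 to 62.6 CPM in *atg5-1*. The shares called were 58.3% of root and 71.4% of stomatal and epidermal markers, against 53.5% of all genes. Senescence markers summed to 518 to 534 CPM in *lon1-2atg5-1* and 512 to 540 in *atg5-1*, and the defining marker *SAG12* did not pass the filter on low counts. This sum joins moves in both directions, since *SAG13* rose (log2 fold change 3.56) and *SGR1* (-0.84), *PPH* (-0.78) and *ORE1* (-0.27) fell. The part of these tissue markers in the values below was not tested. In whole seedlings, fewer cells of a type and less RNA per cell cannot be told apart.

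None of the 51 genes was removed by the filter on low counts. In *lon1-2atg5-1*, 17 of them rose, 4 fell and 30 did not pass the test, so that 41.2% were called, against 53.5% of all genes. With DESeq2 in place of edgeR, 21 rose and 4 fell, while 49.6% of all genes were called. The size of the gap to all genes thus depended on the test. The changes were small: the median log2 fold change was 0.14 (median over all genes -0.00), the median absolute change was 0.22 (all genes 0.35), and the range ran from -0.73 for *LHCB7* to 0.74 for *ATPD*. Only *LHCB1.2*, *ATPD* and *LHCB7* passed with a fold change over 1.5, which is 5.88% of the set against 27.7% of all genes. The estimate was above 0 for 38 genes and below 0 for 13. All *lon1-2atg5-1* libraries lay above all *atg5-1* libraries for 21 genes and below them for 5, which is 51% without overlap against 63.2% of all genes.

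The number of calls changed when single libraries were left out. Genes that rose numbered 8 without *lon1-2atg5-1* replicate 2, 9 without *atg5-1* replicate 1, 9 without *atg5-1* replicate 2 and 24 without *lon1-2atg5-1* replicate 1. Genes that fell numbered 2 without *atg5-1* replicate 3. Over all genes the share called was 44.9%, 44.9%, 43.3%, 50.0% and 43.4% in these fits, in the order named, against 53.5% with all libraries. The number past 1.5-fold was 1 without *lon1-2atg5-1* replicate 1, 2 without *lon1-2atg5-1* replicate 2 or without *atg5-1* replicate 2, and 6 without *lon1-2atg5-1* replicate 3. The calls of 10 genes held with each library left out in turn, namely *LHCB1.2*, *LHCB4.3*, *LHCB6*, *LHCB7*, *PSAE1*, *PSAH2*, *PSBQ2*, *PSBR*, *ATPD* and *PETE1*. The shares of all genes past 1.5-fold in these fits, and of all genes whose calls held throughout, are not given here. Neither count can therefore be set against all genes. The *lon1-2atg5-1* libraries also stood in an order of their own, since replicate 1 was the lowest of the 3 for 32 of the 51 genes and replicate 2 the highest for 34. The coefficient of variation was larger in *lon1-2atg5-1* for 41 of the 51 genes, with a median of 8.35% in *lon1-2atg5-1* and 5.72% in *atg5-1*.

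**Figure D1:**
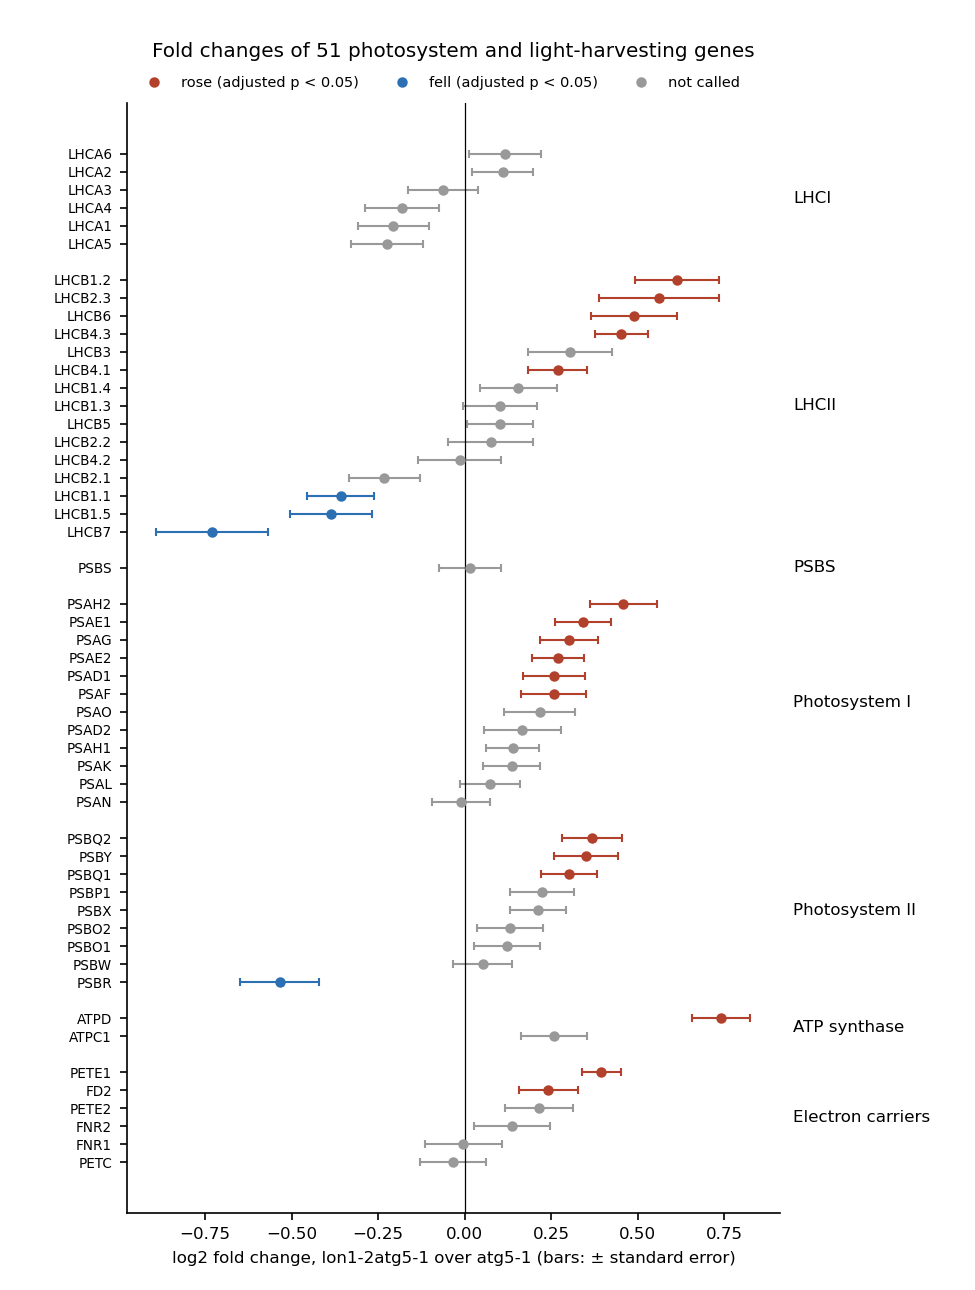
Log2 fold change of each of the 51 genes (horizontal axis, *lon1-2atg5-1* over *atg5-1*, bars ± standard error), grouped by complex and coloured by the edgeR call at an adjusted p of 0.05. The 12 photosystem I genes lie between -0.01 and 0.46, no LHCI gene was called, and the LHCII genes spread from -0.73 to 0.61.

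Taken as a share of the whole library, the 51 genes held 7.97%, 8.72% and 7.94% of counts in *lon1-2atg5-1* and 7.58%, 7.75% and 8.33% in *atg5-1*. The groups overlapped, and the difference in means of 0.33 percentage points was within the spread between libraries (exact permutation test, two-sided, p = 0.40; the smallest p that 3 against 3 allows is 0.10). The photosystem I subunits held 1.43% ± 0.10 in *lon1-2atg5-1* and 1.26% ± 0.05 in *atg5-1* (SD, n = 3 each), without overlap (exact permutation test, p = 0.10). The 2 ATP synthase genes of the set held 0.198% ± 0.013 in *lon1-2atg5-1* and 0.150% ± 0.004 in *atg5-1*, also without overlap (exact permutation test, p = 0.10, n = 3 each). The LHCI genes held 0.833% in *lon1-2atg5-1* and 0.893% in *atg5-1* (exact permutation p = 0.30), and the LHCII genes 3.36% in *lon1-2atg5-1* and 3.28% in *atg5-1* (exact permutation p = 0.60). The photosystem II subunits held 1.57% in *lon1-2atg5-1* and 1.52% in *atg5-1* (exact permutation p = 0.50), and the electron carriers 0.705% in *lon1-2atg5-1* and 0.651% in *atg5-1* (exact permutation p = 0.30). Each of these overlapped between the genotypes. These are 8 shares compared, *PSBS* and the sum included, and no p in this design can go below 0.10.

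**Figure D2:**
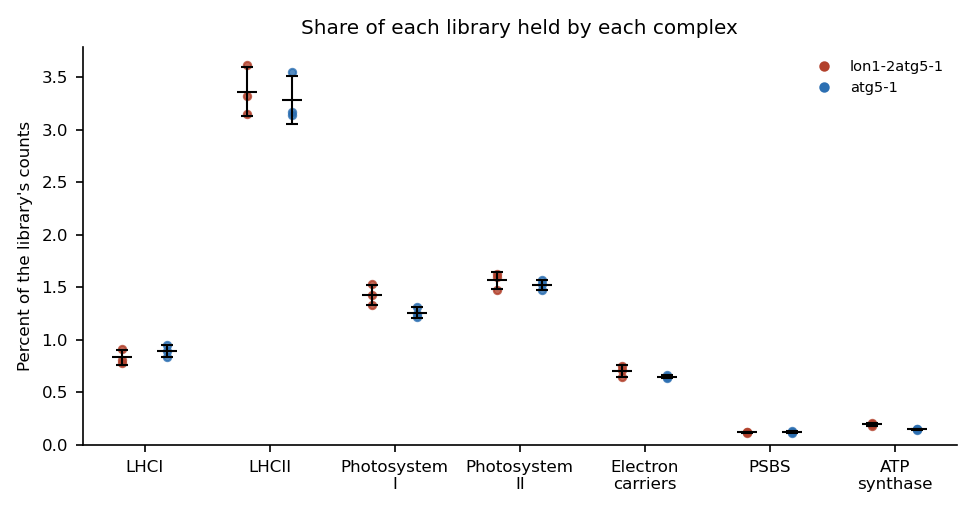
Percent of a library's counts (vertical axis) held by the genes of each complex, with 1 point per library and bars for mean ± SD, *lon1-2atg5-1* left of *atg5-1*. The photosystem I and ATP synthase points do not overlap between the genotypes, and LHCII takes the largest share in both, 3.36% in *lon1-2atg5-1* and 3.28% in *atg5-1*.

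None of the 6 *LHCA* genes of the photosystem I antenna passed the test, against 53.5% of all genes, and their median log2 fold change was -0.12. *LHCA1* to *LHCA4* encode the belt of antenna proteins bound to the photosystem I core, and gave -0.21, 0.11, -0.06 and -0.18. *LHCA5* and *LHCA6* encode rarer antenna proteins that join photosystem I to the plastid NAD(P)H dehydrogenase-like complex. *LHCA5* (AT1G45474) had 2930, 3561 and 3944 normalised counts in *lon1-2atg5-1* and 3974, 4149 and 4075 in *atg5-1*. Its *lon1-2atg5-1* libraries were all below those of *atg5-1*, by a log2 fold change of -0.23 (95% interval -0.47 to 0.02, edgeR adjusted p = 0.102). *LHCA6* (AT1G19150) had 1902, 2230 and 2570 in *lon1-2atg5-1* and 2018, 2098 and 2065 in *atg5-1*, with the *lon1-2atg5-1* libraries on both sides of *atg5-1*. *LHCA5* passed the test at -0.26 with scaling by library size alone and in limma on log2(FPKM + 1) or log2(FPKM + 0.1) after the filter, and at -0.32 without *lon1-2atg5-1* replicate 3, and without *lon1-2atg5-1* replicate 1 *LHCA6* passed it at 0.22.

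Genes for the LHCII antenna moved in both directions. Of 15 *LHCB* genes, 5 rose (*LHCB1.2*, *LHCB2.3*, *LHCB4.1*, *LHCB4.3* and *LHCB6*), 3 fell (*LHCB1.1*, *LHCB1.5* and *LHCB7*) and 7 did not pass, with a median log2 fold change of 0.10. The share called, 53.3%, was close to the 53.5% of all genes. *LHCB1*, *LHCB2* and *LHCB3* encode the proteins of the major LHCII trimers, and of these 9 genes 2 rose and 2 fell. *LHCB4*, *LHCB5* and *LHCB6* encode the monomeric antenna proteins CP29, CP26 and CP24, which link the trimers to the photosystem II core.

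*LHCB1.2* (AT1G29910) had 42541, 44778 and 33057 normalised counts in *lon1-2atg5-1* and 25945, 25195 and 27593 in *atg5-1*. Every *lon1-2atg5-1* library was above every *atg5-1* library, with replicate 3 nearest to *atg5-1*, and the log2 fold change was 0.61 ± 0.12 (SE, n = 3 each, edgeR adjusted p = 0.00336). *LHCB1.1* (AT1G29920), its neighbour, had 50721, 56818 and 49247 in *lon1-2atg5-1* and 63673, 65481 and 71916 in *atg5-1*. Here every *lon1-2atg5-1* library was below, at -0.36 ± 0.10 (SE, edgeR adjusted p = 0.0138), a call lost without *atg5-1* replicate 3 (adjusted p = 0.0614). *LHCB1.3* (AT1G29930), the most abundant of the 51 genes, had 268314, 289113 and 287476 in *lon1-2atg5-1* and 249950, 252615 and 284493 in *atg5-1*, and the groups overlapped at a log2 fold change of 0.10 (95% interval -0.14 to 0.35).

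Of the other *LHCB1* pair, on chromosome 2, the more abundant copy fell and the other did not pass. *LHCB1.5* (AT2G34420) had 67779, 87581 and 80327 normalised counts in *lon1-2atg5-1* and 96070, 101202 and 110946 in *atg5-1*, without overlap, and fell by 0.39 on the log2 scale (edgeR adjusted p = 0.0244). *LHCB1.4* (AT2G34430) had 28503, 32926 and 32395 in *lon1-2atg5-1* and 26407, 25662 and 32189 in *atg5-1*, which overlapped, with a log2 fold change of 0.16 (95% interval -0.10 to 0.41). The *LHCB1.5* call was lost without *atg5-1* replicate 2 or replicate 3.

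In the *LHCB2* family, *LHCB2.3* (AT3G27690) rose by a log2 fold change of 0.56 ± 0.17 (SE, n = 3 each, edgeR adjusted p = 0.0245). It had 9561, 10348 and 7435 normalised counts in *lon1-2atg5-1* and 5076, 5749 and 7708 in *atg5-1*. It was the only one of the 21 called genes of the set whose groups overlapped, and it did not pass without *lon1-2atg5-1* replicate 2, *atg5-1* replicate 1 or *atg5-1* replicate 2. *LHCB2.1* (AT2G05100) had 24774, 27683 and 23377 in *lon1-2atg5-1* and 26813, 29706 and 32579 in *atg5-1*, at -0.23. *LHCB2.2* (AT2G05070) had 17366, 18718 and 14442 in *lon1-2atg5-1* and 14219, 15714 and 18041 in *atg5-1*, at 0.07. Both overlapped between the genotypes and did not pass the test. *LHCB3* (AT5G54270), the partner of the trimers bound with moderate strength, did not pass at 0.30 (95% interval 0.02 to 0.58, edgeR adjusted p = 0.0645), and passed it without *lon1-2atg5-1* replicate 3.

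Among the monomeric antenna genes, *LHCB4.1* (AT5G01530) gave a log2 fold change of 0.27, *LHCB4.3* (AT2G40100) 0.45, *LHCB5* 0.10 and *LHCB6* (AT1G15820) 0.49, and all of these but *LHCB5* passed the test. The call of *LHCB4.1* was lost in 4 of the 6 fits that left out a library, those without *lon1-2atg5-1* replicate 2 and without any one *atg5-1* library. *LHCB4.2* (AT3G08940) had 22294, 24519 and 18542 normalised counts in *lon1-2atg5-1* and 20267, 21427 and 24329 in *atg5-1*, which overlapped at -0.01 (95% interval -0.29 to 0.26). *LHCB7* (AT1G76570), a scarce relative at 11.2 FPKM (fragments scaled to gene length and library total) in *lon1-2atg5-1* and 19 FPKM in *atg5-1*, had 237, 308 and 390 normalised counts in *lon1-2atg5-1* and 482, 553 and 516 in *atg5-1*. All of its *lon1-2atg5-1* libraries were below those of *atg5-1*, and it fell by 0.73 on the log2 scale (SE 0.16, edgeR adjusted p = 0.00581). *PSBS* (AT1G44575), which is needed for the rapid dissipation of excess excitation energy, had 25919, 28582 and 29166 in *lon1-2atg5-1* and 25346, 27961 and 29489 in *atg5-1*, a log2 fold change of 0.02 (95% interval -0.19 to 0.22).

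Since FPKM is scaled to gene length, the copies of a family could be compared with each other in level. *LHCB1.3* made up 57.2% ± 1.6 of the FPKM of the *LHCB1* family in *lon1-2atg5-1* and 52.6% ± 0.2 in *atg5-1* (SD, n = 3 each). *LHCB1.2* made up 8.20% ± 1.28 in *lon1-2atg5-1* and 5.30% ± 0.19 in *atg5-1*. In the opposite direction, *LHCB1.5* made up 18.7% ± 1.4 in *lon1-2atg5-1* and 24.3% ± 0.4 in *atg5-1*. *LHCB1.1* likewise took the smaller share in *lon1-2atg5-1*, with 9.93% ± 0.48 against 12.6% ± 0.1 in *atg5-1*. None of these shares overlapped between the genotypes, while the summed level of the family did, with 17530 ± 910 FPKM in *lon1-2atg5-1* and 18100 ± 1251 FPKM in *atg5-1* (SD, n = 3 each).

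Shares within *LHCB2* did not overlap either. *LHCB2.1* made up 46.3% ± 1.9 in *lon1-2atg5-1* and 53.8% ± 1.2 in *atg5-1*, and *LHCB2.3* 15.9% ± 1.0 in *lon1-2atg5-1* and 10.6% ± 1.1 in *atg5-1*. *LHCB4.2* made up 27.0% ± 2.0 of its family in *lon1-2atg5-1* and 31.2% ± 1.2 in *atg5-1*, and *PSAH2* 66.0% ± 3.0 of the *PSAH* pair in *lon1-2atg5-1* and 60.9% ± 1.5 in *atg5-1*. Each of these differences, and those of *LHCB1*, gave p = 0.10 in an exact two-sided permutation test, which is the smallest p that 3 against 3 allows. Adjusted over the 18 shares compared, each permutation p was 0.138. Of 18 shares compared, those of *LHCB4.3*, *PSAD2*, *PSAE2*, *PSBO2* and *PSBQ2* overlapped between the genotypes. The shares of 1 family are not independent, because they sum to 100%.

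**Figure D3:**
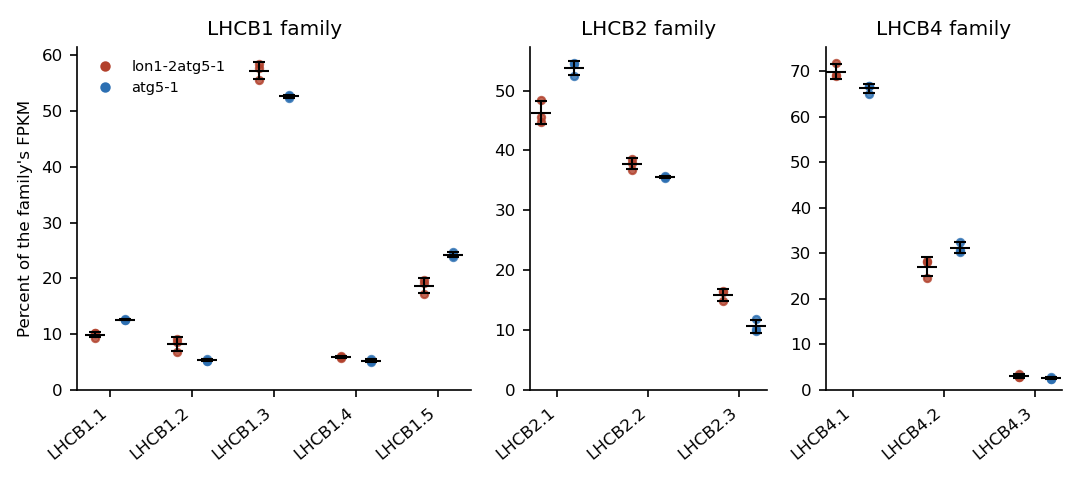
Percent of a family's summed FPKM (vertical axis) held by each copy of the *LHCB1*, *LHCB2* and *LHCB4* families, with 1 point per library and bars for mean ± SD, *lon1-2atg5-1* left of *atg5-1*. *LHCB1.5* and *LHCB2.1* take smaller shares in *lon1-2atg5-1* (18.7% and 46.3%) than in *atg5-1* (24.3% and 53.8%), and *LHCB2.3* a larger one (15.9% in *lon1-2atg5-1* and 10.6% in *atg5-1*).

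How reads shared between near-identical copies were counted is not given in the sources used here. Some exonic stretches of 100 bases occur unchanged elsewhere in the genome. They make up 4.44% of those in *LHCB1.1*, 1.51% in *LHCB1.2*, 3.27% in *LHCB1.3*, 3.30% in *LHCB1.4*, 4.23% in *LHCB1.5*, 10.7% in *LHCB2.1* and 13.7% in *LHCB2.2*. The split of counts within these families is therefore uncertain, to an extent that these percentages do not fix. The other 44 genes have no such stretch. With copies summed, *LHCB1.1* to *LHCB1.3* together gave a log2 fold change of 0.07 ± 0.11 (SE, n = 3 each, edgeR adjusted p = 0.594), *LHCB1.4* and *LHCB1.5* -0.25 ± 0.12 (adjusted p = 0.102), and *LHCB2.1* and *LHCB2.2* -0.12 ± 0.11 (adjusted p = 0.405), so that no sum passed the test. In addition, 17 of the 51 genes overlap an annotated gene on the opposite strand, 8 of the 21 called genes among them. The strand setting of the counting is not given, and an overlapping gene held at most 14.7% of the counts of its partner, in the case of *PSAE2*, and 7.51% in that of *LHCB2.3*. *PSAD2* and *PSBP1* overlap a gene on the same strand, which held 9.58% and 2.05% of their counts.

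Of 12 photosystem I subunit genes, 6 rose (*PSAD1*, *PSAE1*, *PSAE2*, *PSAF*, *PSAG* and *PSAH2*), none fell and 11 had an estimate above 0, with a median log2 fold change of 0.24. The share called was 50%, against 53.5% of all genes. PSAD and PSAE form the stromal side on which ferredoxin docks, and their genes gave 0.26 for *PSAD1* (AT4G02770), 0.34 for *PSAE1* (AT4G28750) and 0.27 for *PSAE2* (AT2G20260). *PSAD2* (AT1G03130), which did not pass, had 8994, 9717 and 7624 normalised counts in *lon1-2atg5-1* and 7137, 7597 and 8729 in *atg5-1*, overlapping at 0.17. On the lumenal side, *PSAF* (AT1G31330), whose protein binds plastocyanin, gave 0.26. *PSAN* (AT5G64040), for another lumenal subunit, had 19325, 21423 and 20002 in *lon1-2atg5-1* and 19128, 20343 and 21748 in *atg5-1*, at -0.01, the lowest estimate of the complex.

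*PSAH2* (AT1G52230) moved most within photosystem I. It had 17977, 18661 and 15422 normalised counts in *lon1-2atg5-1* and 11811, 12509 and 13567 in *atg5-1*, with every *lon1-2atg5-1* library above, a log2 fold change of 0.46 ± 0.10 (SE, n = 3 each, edgeR adjusted p = 0.00459). PSAH forms, with PSAL and PSAO, the side of the complex where mobile LHCII binds during state transitions. Its other copy *PSAH1* (AT3G16140) had 15318, 17273 and 17007 in *lon1-2atg5-1* and 14855, 15099 and 15107 in *atg5-1*, which did not overlap but did not pass at 0.14 (edgeR adjusted p = 0.155). *PSAL* (AT4G12800) gave 0.07 and *PSAO* 0.22, and neither passed. *PSAG* (AT1G55670), which helps to anchor the LHCI belt, rose with 0.30, while *PSAK*, at the other end of that belt, did not pass at 0.14. The calls of *PSAE1* and *PSAH2* held with each library left out, whereas those of *PSAD1*, *PSAE2*, *PSAF* and *PSAG* were each lost without *lon1-2atg5-1* replicate 2, without *atg5-1* replicate 1 and without *atg5-1* replicate 2. Those of *PSAD1* and *PSAF* were also lost without *atg5-1* replicate 3 and with scaling by library size alone.

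In photosystem II, 3 of 9 genes rose (*PSBQ1*, *PSBQ2* and *PSBY*), 1 fell (*PSBR*) and the median log2 fold change was 0.21. The share called was 44.4%, against 53.5% of all genes. PSBO, PSBP and PSBQ shield the manganese cluster that splits water. *PSBQ2* (AT4G05180) had 21810, 24178 and 20495 normalised counts in *lon1-2atg5-1* and 16489, 17108 and 17945 in *atg5-1*. All *lon1-2atg5-1* libraries were above, and *PSBQ2* rose by a log2 fold change of 0.37 ± 0.09 (SE, n = 3 each, edgeR adjusted p = 0.00779). *PSBQ1* (AT4G21280) gave 0.30, *PSBP1* 0.22, *PSBO1* 0.12 and *PSBO2* 0.13, of which only *PSBQ1* passed, and not without *lon1-2atg5-1* replicate 2.

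*PSBR* (AT1G79040), whose product helps to attach the lumenal proteins of photosystem II, moved against the rest. It had 43178, 49985 and 55248 normalised counts in *lon1-2atg5-1* and 66099, 73468 and 75467 in *atg5-1*. The groups did not overlap, and it fell by 0.53 on the log2 scale (SE 0.11, edgeR adjusted p = 0.00467), a call that held with each library left out. The small membrane-spanning subunits gave 0.35 for *PSBY* (AT1G67740), 0.21 for *PSBX* and 0.05 for *PSBW*. Only *PSBY* passed, and not without *lon1-2atg5-1* replicate 2, *atg5-1* replicate 1 or *atg5-1* replicate 2.

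The largest rise among the 51 genes was that of *ATPD* (AT4G09650), the nuclear gene for the delta subunit, which joins the catalytic head of the plastid ATP synthase to its peripheral stalk. It had 16262, 17719 and 18532 normalised counts in *lon1-2atg5-1* and 10099, 10055 and 11287 in *atg5-1*. The lowest *lon1-2atg5-1* library was well above the highest *atg5-1* library, and the log2 fold change was 0.74 ± 0.08 (SE, n = 3 each, edgeR adjusted p = 0.00023). *ATPC1* (AT4G04640), for the gamma subunit that forms the rotating shaft, had 24633, 27822 and 30681 in *lon1-2atg5-1* and 22413, 23574 and 23574 in *atg5-1*. It did not overlap between the genotypes and lay at the threshold, with 0.26 (95% interval 0.04 to 0.48, edgeR adjusted p = 0.0506). It passed under DESeq2, with scaling by library size alone and without a filter on low counts. Outside the set, the relative *ATPG* (AT4G32260) had 19734, 23742 and 27677 in *lon1-2atg5-1* and 24701, 25857 and 26011 in *atg5-1*. These overlapped, and *ATPG* did not pass at -0.11.

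Of the electron carriers, *PETE1* and *FD2* rose and the other 4 did not pass, so that 33.3% were called, against 53.5% of all genes. *PETE1* (AT1G76100), the minor plastocyanin gene, had 2309, 2429 and 2355 normalised counts in *lon1-2atg5-1* and 1762, 1789 and 1845 in *atg5-1*. Its groups did not overlap, its standard error was the smallest of the 51 genes, and the log2 fold change was 0.39 ± 0.06 (SE, n = 3 each, edgeR adjusted p = 0.000694). *PETE2*, which supplied 94.6% of plastocyanin FPKM in *lon1-2atg5-1* and 95.2% in *atg5-1*, had 47671, 54079 and 58871 in *lon1-2atg5-1* and 44641, 46947 and 46750 in *atg5-1*. These did not overlap either, but *PETE2* (AT1G20340) did not pass at 0.22 (95% interval -0.01 to 0.44). *PETC* (AT4G03280), for the Rieske iron-sulfur protein of the cytochrome b6f complex, had 20283, 23736 and 25015 in *lon1-2atg5-1* and 22605, 24296 and 23833 in *atg5-1*, overlapping at -0.04. *FD2* (AT1G60950), the main leaf ferredoxin, gave 0.24, and its call was lost in all fits that left out a library but the one without *lon1-2atg5-1* replicate 1. *FNR1* and *FNR2*, for the 2 leaf ferredoxin-NADP reductases, gave -0.00 and 0.14 and did not pass. The share of *FNR2* in the FPKM of the pair was 46.0% ± 0.1 in *lon1-2atg5-1* and 43.6% ± 0.4 in *atg5-1* (SD, n = 3 each). These did not overlap (exact permutation test, p = 0.10, and 0.138 adjusted over 18 shares).

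The 250 bases upstream of each annotated start were searched on both strands for 5 short sequences known from photosynthesis genes. The palindrome CACGTG, the core of the G-box that bZIP and bHLH transcription factors bind, was present in 10 of the 51 windows (19.6%) and in 6.5% of those of all genes. Of these 10 genes, 8 rose, *LHCB7* fell and *LHCA4* did not pass, with a median log2 fold change of 0.33. Of the 41 genes without it, 9 rose and 3 fell, with a median of 0.13. Over all genes tested, 28.0% of those with CACGTG and 27.6% of those without it rose. The 10 sites are printed 5′ to 3′ on the strand of each gene, in capitals with 10 bases on each side, and were chosen after the fold changes had been seen. With a second site in *PSAH2*, *PSBQ1* and *PSBQ2*, the one farther from the start is shown.
ATPD, chr4:6100562-6100587, plus strand: caaacaactcCACGTGtcgattcctc
LHCB2.3, chr3:10255808-10255833, plus strand: atatcttctaCACGTGaatctagttt
LHCB6, chr1:5447989-5448014, minus strand: aattaatttcCACGTGtcattttatt
PSAH2, chr1:19454721-19454746, plus strand: ttttataatcCACGTGgcatttccta
PSBQ2, chr4:2673373-2673398, minus strand: gtcattcagcCACGTGacaatcgcat
PSBQ1, chr4:11334259-11334284, plus strand: ataatcttgcCACGTGgctttaaggc
LHCB4.1, chr5:208782-208807, plus strand: gaccgcagtaCACGTGgcttcttcta
PSAE2, chr2:8736661-8736686, plus strand: tatgtgatcaCACGTGtcatatcaca
LHCA4, chr3:17495106-17495131, minus strand: atttaattgaCACGTGtaacaacaat
LHCB7, chr1:28728969-28728994, plus strand: aatatcattaCACGTGgccagatcca

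The sites lie between 19 bases (*LHCB7*) and 145 bases (*PSBQ2*) before the annotated start, and the searched window of *LHCB6*, *LHCB7*, *PSAE2*, *PSAH2*, *PSBQ1* and *ATPD* also overlaps a neighbouring annotated gene. A match of letters is a description and does not show that a factor binds. The number of genes with CACGTG that rose was 4 of 10 without *lon1-2atg5-1* replicate 2, 5 without *atg5-1* replicate 1 and 5 without *atg5-1* replicate 2, while the number without CACGTG that rose was 4 of 41 in each of these fits and 16 of 41 without *lon1-2atg5-1* replicate 1. The other sequences were GATAAG in 12 of the 51 windows (12.3% of all genes), AAAAATCT in 5 (6.7%), AAAATATC in 4 (5.9%) and CCAATC in 14 (10.2%). Of these members, 5 with GATAAG rose, 4 with CCAATC, and none with AAAAATCT or AAAATATC. Over all genes tested, 27.4% of those with GATAAG, 26.4% with AAAAATCT, 28.9% with AAAATATC and 28.6% with CCAATC rose.

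**Figure D4:**
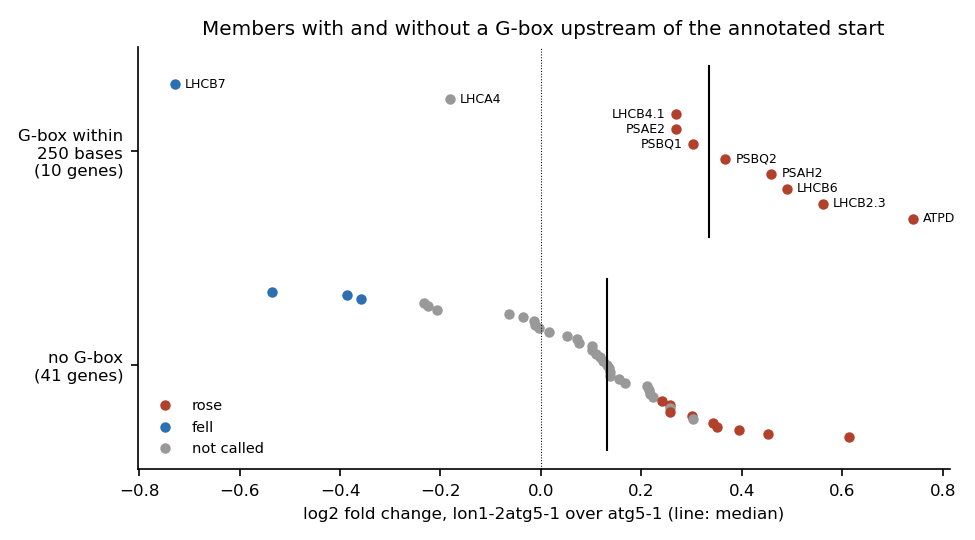
Log2 fold change (horizontal axis, *lon1-2atg5-1* over *atg5-1*) of the 10 genes with CACGTG in the 250 bases upstream and of the 41 without it, 1 point per gene, coloured by call, with a line at the median of each set. The medians are 0.33 and 0.13, and *LHCB7* at -0.73 is the only gene with the site that fell.

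The genes that serve the photosystems did not move as 1 block. Of 14 genes of chlorophyll synthesis 7 rose and none fell, with a median log2 fold change of 0.33 (all genes -0.00), and 1 fell without *lon1-2atg5-1* replicate 3. The share called was 50%, against 53.5% of all genes, of which 27.7% rose. *PORB* and *PORC*, for the enzymes that reduce protochlorophyllide in the light, gave 1.17 and 0.89. *PORB* had 16146, 13969 and 10129 normalised counts in *lon1-2atg5-1* and 6003, 5594 and 6297 in *atg5-1*, without overlap (edgeR adjusted p = 0.000483). *DVR*, for divinyl reductase, gave 0.92 and *CHLI1*, for a subunit of magnesium chelatase, 0.64, and both passed.

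Of 8 regulators of light harvesting and electron flow, 6 fell and none rose, with a median of -0.37. The share called was 75%, against 53.5% of all genes, of which 25.8% fell. *PGRL1A* and *PGR5*, whose products act in cyclic electron flow around photosystem I, gave -0.63 and -0.36. *PGRL1A* had 4676, 5857 and 7114 normalised counts in *lon1-2atg5-1* and 8592, 9567 and 9182 in *atg5-1*, without overlap (edgeR adjusted p = 0.00589). *ZEP*, for zeaxanthin epoxidase, gave -0.61, and *STN7* and *TAP38*, for the kinase and the phosphatase of LHCII in state transitions, gave -0.37 and -0.44. Both passed the test, as did *PGR5* and *ZEP*.

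Of 16 targeting and assembly factors 5 rose and 3 fell, with a median of 0.15, while 9 rose without *lon1-2atg5-1* replicate 1, 5 fell without *lon1-2atg5-1* replicate 3 and 1 fell without *atg5-1* replicate 2. The share called, 50%, was close to the 53.5% of all genes. *CPSRP43*, for the subunit of the chloroplast signal recognition particle that carries LHC proteins, rose with 0.58, and *PSB28*, an assembly factor of photosystem II, with 0.68. *HCF173*, which is needed for translation of the photosystem II core protein D1, had 4369, 6319 and 8714 normalised counts in *lon1-2atg5-1* and 10681, 12387 and 11760 in *atg5-1*, and fell by 0.84 on the log2 scale (edgeR adjusted p = 0.011). Its partner *HCF244* gave -0.35, a call lost without *atg5-1* replicate 2, and *ALB3*, for the insertase of LHC proteins, gave -0.28, a call lost in 4 of the 6 fits that left out a library, those without *lon1-2atg5-1* replicate 2 and without any one *atg5-1* library.

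Among 10 transcription factors of photosynthesis genes 3 rose and 2 fell, with a median of -0.00, and the share called, 50%, was close to the 53.5% of all genes. The number that rose was 0 without *atg5-1* replicate 1 or replicate 2, and 1 without *atg5-1* replicate 3, *lon1-2atg5-1* replicate 1 or *lon1-2atg5-1* replicate 2. The pair of GOLDEN2-LIKE factors, activators of antenna and chlorophyll genes, was split. *GLK1* had 1342, 1274 and 713 normalised counts in *lon1-2atg5-1* and 665, 713 and 759 in *atg5-1*, overlapping through replicate 3 of *lon1-2atg5-1*, with a log2 fold change of 0.64 ± 0.21 (SE, n = 3 each, edgeR adjusted p = 0.0316), a call lost in all fits that left out a library but the one without *lon1-2atg5-1* replicate 3. *GLK2* had 1641, 1427 and 1347 in *lon1-2atg5-1* and 2016, 1957 and 1771 in *atg5-1*, without overlap, and fell by 0.38 on the log2 scale (edgeR adjusted p = 0.00728). *PIF5*, a phytochrome-interacting factor, gave -0.51 and passed. *STN7*, *TAP38*, *PGR5*, *CPSRP43*, *ALB3*, *HCF244*, *GLK2* and *PIF5* were singled out after their values were seen.

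**Figure D5:**
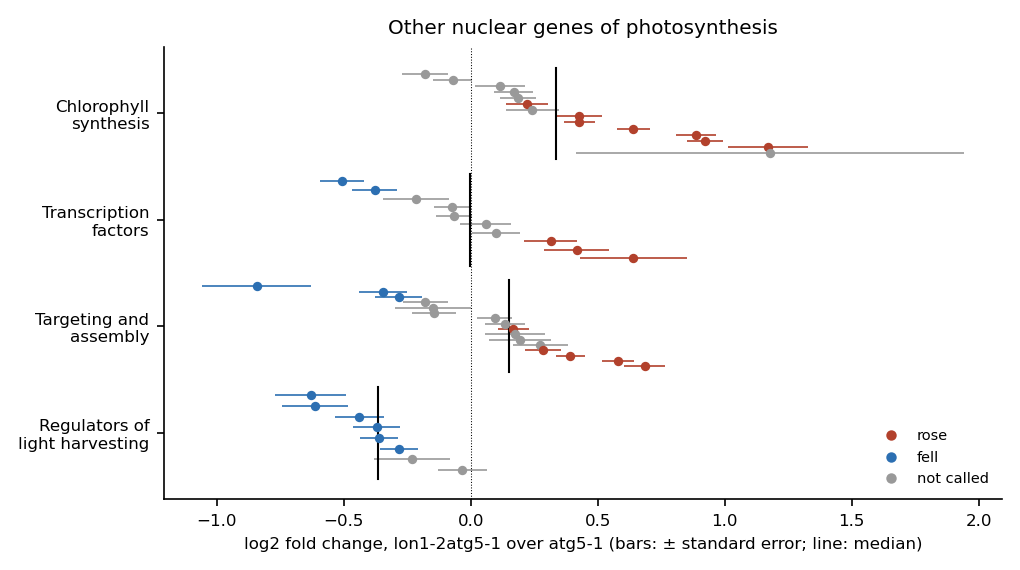
Log2 fold change (horizontal axis, *lon1-2atg5-1* over *atg5-1*, bars ± standard error) of the other nuclear genes of photosynthesis in 4 lists, 1 point per gene, coloured by call, with a line at each median. Medians are 0.33 for chlorophyll synthesis, -0.00 for transcription factors, 0.15 for targeting and assembly factors and -0.37 for regulators of light harvesting, none of which rose.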

How the data were processed

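Total RNA of 3 *lon1-2atg5-1* and 3 *atg5-1* seedling libraries was sequenced from stranded mRNA libraries as paired reads. The authors trimmed reads with Trimmomatic, aligned them with HISAT2 to TAIR10 and used HTSeq for counting, and the counts as deposited are raw. The authors name Cufflinks for the FPKM values as deposited, which equalled count over exonic gene length and library total for 23819 of 23819 genes with a count. The handling of multi-mapped reads and strand is not given in the sources used here.

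Groups follow the genotype labels. After filterByExpr, 20157 genes remained. Differences were tested under TMM scaling by edgeR (version 4.0.16, R 4.3.3) with glmQLFit and glmQLFTest, on both genotypes and without covariates. P-values were adjusted over all genes by the method of Benjamini and Hochberg, and genes with an adjusted p under 0.05 were said to rise or fall. P-values measure the spread between these triplicate seedling samples. Shares of counts and of family FPKM were compared with exact two-sided permutation tests (scipy 1.17.1). For family FPKM the p-values were also adjusted over the 18 shares. Scripts were tested on simulated data. Gene positions, upstream windows and coding sequences were read from the RefSeq TAIR10.1 genome and annotation, by gene identifier.

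The 51 genes and the lists were chosen with earlier results of these data known. Every gene of the set was named, and counts per library were given for the highest and lowest fold change of each complex, for called genes past 1.5-fold and for genes that did not pass while a copy did. Other lists were named for called genes past 1.5-fold, at most 6 a list. All root markers, *SPCH*, *GL1*, *ORE1*, *RFNR2* and *ATPG* are named in addition. Alternatives were DESeq2 1.42.0, scaling by library size, by size factors or by TMM without the 51 genes, no filter, a minimum of 10 counts per library, a replicate block, limma 3.58.1 on log2(FPKM + 1) and log2(FPKM + 0.1), summed copies, fold change thresholds of 1.5 and 2, and each library left out in turn.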

Additional observations from a re-analysis of the deposited data

How the results depend on the processing

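Genes of the set that rose numbered 17 and those that fell 4. With limma on log2(FPKM + 1) without a filter they numbered 4 and 1, and that fit called 34.8% of all genes, against 53.5% in the main fit. With a fold change over 1.5 they numbered 2 and 1, and with a fold change over 2 they numbered 0 and 0. With near-identical copies summed 2 fell, by construction, since *LHCB1.1* and *LHCB1.5* are then parts of sums. With each library left out, 8 to 24 rose and 2 to 5 fell, while 43.3% to 56.5% of all genes were called. In these fits 1 to 6 of the set were past 1.5-fold, for which the share of all genes is not given here. Under the same fits the median log2 fold change ran from -0.18 to -0.05 for LHCI, 0.07 to 0.17 for LHCII, 0.17 to 0.27 for photosystem I, 0.18 to 0.26 for photosystem II and 0.09 to 0.27 for the electron carriers, the LON1 log2 fold change from -2.42 to -1.87, and the difference in the share of counts from 0.07 to 0.55 percentage points. With limma on log2(FPKM + 1) after the filter 12 rose and 5 fell, while 52.5% of all genes were called, 4997 higher and 5576 lower. In that fit *LHCB4.1*, *PSAD1*, *PSAF*, *PSAG*, *FD2* and *GLK1* were no longer called. The calls of *LHCB4.3*, *LHCB7*, *ATPD* and *PETE1* held in all 17 alternatives run on single genes.

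Signs changed for 9 genes, all but *LHCB1.1* without a call. With copies summed the log2 fold change was 0.0727 for *LHCB1.1*, -0.25 for *LHCB1.4* and -0.12 for *LHCB2.2*, by construction. With each library left out it ran from -0.13 to 0.0047 for *LHCA3*, -0.0047 to 0.18 for *LHCB2.2*, -0.11 to 0.0924 for *LHCB4.2*, -0.0442 to 0.0671 for *PSBS*, -0.0572 to 0.0354 for *PSAN*, -0.0959 to 0.0499 for *PETC* and -0.1007 to 0.10 for *FNR1*. The log2 fold change of PSBS was -0.0137 with scaling by library size alone and -0.0123 in each of the limma fits. The cause was not tested.

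Replicate numbers did not pair the samples: deviations of libraries with the same number correlated at -0.04, -0.12 and -0.01. With the replicate number as a block, 13 genes rose and 4 fell, and *LHCB4.1*, *PSAD1*, *PSAF* and *FD2* were no longer called. That fit called 49.8% of all genes. With 3 libraries in each genotype and changes mostly under 1.5-fold, genes near the threshold cannot be placed on either side of it from these data. Examples are *ATPC1*, *PSBX* (adjusted p = 0.0537 in edgeR) and *LHCB3*, which did not pass. Called genes near it are *PSAF*, *FD2* and *PSAD1* (adjusted p = 0.0457, 0.0404 and 0.0387 in edgeR).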

Other observations

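Among relatives of the photosynthetic genes outside the set, *ELIP1* and *RFNR1* gave larger fold changes than any gene within it. Of 13 such genes 5 rose and none fell, with a median log2 fold change of 0.15 (all genes -0.00), and 2 fell without *lon1-2atg5-1* replicate 3. The share called was 38.5%, against 53.5% of all genes. *ELIP1*, for an early light-induced protein of the LHC superfamily, had 2660, 2753 and 2284 normalised counts in *lon1-2atg5-1* and 555, 599 and 574 in *atg5-1*, a log2 fold change of 2.15 ± 0.09 (SE, n = 3 each, edgeR adjusted p = 2.93e-06). *ELIP2* gave 0.73, without overlap. *RFNR1*, a root-type ferredoxin-NADP reductase, had 1512, 1284 and 1128 in *lon1-2atg5-1* and 611, 544 and 459 in *atg5-1*, a log2 fold change of 1.28. The other root-type gene *RFNR2* overlapped between the genotypes and did not pass at 0.04 (edgeR adjusted p = 0.819). The leaf-type genes *FNR1* and *FNR2* did not pass either. *PSBP2*, a scarce relative of *PSBP1*, had 54, 64 and 53 in *lon1-2atg5-1* and 36, 33 and 36 in *atg5-1*, at 0.72.

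Among the genes of the Rubisco small subunit, the nuclear partner in carbon fixation, *RBCS1B* had 28979, 30826 and 30462 normalised counts in *lon1-2atg5-1* and 17829, 18637 and 17941 in *atg5-1*, a log2 fold change of 0.73 (edgeR adjusted p = 0.000124). Of the 5 genes of the small subunit and its activase 2 rose and none fell, with a median of 0.05, and 1 rose with any library but *lon1-2atg5-1* replicate 1 left out. The share called was 40%, against 53.5% of all genes. Of 7 senescence markers tested, 1 rose and 3 fell, and 2 rose without *lon1-2atg5-1* replicate 1. Here the share called, 57.1%, was close to the 53.5% of all genes. *SAG13* had 2503, 1741 and 1178 in *lon1-2atg5-1* and 104, 214 and 143 in *atg5-1*, while *SGR1* and *PPH*, for enzymes of chlorophyll breakdown, gave -0.84 and -0.78.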
